A study of Sus scrofa with 9 samples.

Results

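The genes described here carry the names testis-expressed (TEX), spermatogenesis-associated (SPATA) and sperm-associated antigen (SPAG). They are the 42 of 22342 gene identifiers in the count table whose symbol starts with TEX, SPATA or SPAG followed by a number, with TEX11, TEX12, SPATA16 and SPATA22 left out by the rule. There were 16 TEX, 17 SPATA and 9 SPAG genes, each with 1 identifier. RNA was measured in cells from the testis of pigs (Sus scrofa), labelled as 3 stages. Spermatogonia, by name the mitotic cells of the germ line, were libraries 1, 2 and 3. Spermatocytes, the cells in meiosis, were libraries 2, 3 and 4. Round spermatids, the haploid cells that follow, were libraries 1, 2 and 3. No treatment, genotype, breed or age was given for any group, so the stages are compared as labelled, from otherwise undescribed testis cells. Their purpose in the series was to follow gene expression beside chromatin structure as sperm form.

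These names were given for where a transcript or antigen was found, not for a shared mechanism, so the genes form no single pathway. Some build the sperm tail: its axoneme is a ring of doublet microtubules around a central pair, and SPAG6, SPAG16 and SPAG17 belong to the apparatus on that pair. Others act on the nuclear envelope, on the piece that joins head and tail, on mitochondria or on the bridges that connect dividing germ cells, and several work in most cell types. In the testis many tail transcripts are known to be made in meiosis, while transcripts of the acrosome and of chromatin packing are made mainly in spermatids.

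The labels were checked against markers, and levels are given as CPM, each gene's share of a library's counts scaled by TMM factors. In the libraries labelled spermatogonia, the summed CPM of 6 spermatid markers (PRM1, PRM2, TNP1, TNP2, ACR and ACRV1) was 2343 to 2398, against 1264 to 2448 in spermatocytes and 5042 to 7571 in round spermatids. PRM1, PRM2, TNP1 and TNP2 carried the higher sum in round spermatids, while ACR was lowest there (means of 704, 939 and 414 CPM in the 3 stages) and ACRV1 highest in spermatogonia (119, 39.5 and 52.7). The sum of 6 spermatogonial markers was 93.0 to 96.9, 34.7 to 45.9 and 78.2 to 83.9 CPM, and that of 5 meiotic markers 1159 to 1211, 2268 to 2628 and 409 to 476. Among the meiotic markers SYCP1, SYCP2, SYCP3 and HORMAD1 were highest in spermatocytes. STAG3 was highest in spermatogonia (means of 931, 811 and 273 CPM) and made up most of the sum there. DMRT1 and UCHL1 made up most of the spermatogonial sum, whereas KIT, the receptor that heads the spermatogonia columns, had its lowest mean in them (6.36, 7.47 and 24.6 CPM), and GFRA1 (0.860, 0.326 and 5.35) and ZBTB16 (3.74, 1.60 and 4.32) were also higher in round spermatids than in spermatogonia. Somatic markers were also uneven: 6 Leydig cell markers found of 7 listed summed to 297 to 316 CPM in spermatogonia, 1.88 to 2.96 in spermatocytes and 25.6 to 33.8 in round spermatids, and 6 smooth muscle markers to 20.2 to 21.9, 8.10 to 20.1 and 4547 to 5528. The sum of 7 Sertoli cell markers was 66.8 to 70.9, 31.0 to 48.6 and 228 to 314 CPM, with AMH at 0 in every spermatocyte library. These marker levels do not bear out the label spermatogonia as a group of mitotic cells alone, so stage names below stand for the labels. The part of somatic cells and of other germ cells in the results below was not tested. In such bulk libraries fewer cells of a type and less RNA per cell cannot be told apart. Spermatogonia libraries differed little more than counting allows, with a median chi-square per gene of 0.801 to 0.861 between pairs where counting alone gives 0.455, against 2.27 to 22 between other replicates. Spermatocytes 3 and round spermatids 2 stood apart from their groups for many of the genes, as described below.

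Transcripts of all 42 genes passed the filter on low counts. A mean of at least 10 CPM in 1 stage or more was reached by 36 of them, against 62.2% of the 16802 genes tested, and 29 reached it in every stage, against 37.5% of all genes tested. On the TPM scale, a share of transcripts that corrects for gene length, the median level over the 42 genes was 103 in spermatogonia, 84.0 in spermatocytes and 34.5 in round spermatids, and their summed TPM was 7888 ± 64.5, 6564 ± 1123 and 5856 ± 576 (SD, n = 3). The sum was 7875, 7958 and 7831 in the spermatogonia libraries, 6275, 5613 and 7804 in spermatocytes, and 5740, 6481 and 5346 in round spermatids, so spermatocytes overlapped round spermatids. The deposited genes left out 3.34 to 3.38% of all TPM in spermatogonia, 3.19 to 3.97% in spermatocytes and 7.67 to 11.8% in round spermatids. The TPM levels here are not rescaled for this, which makes those of round spermatids the most understated relative to the deposited total.

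Which genes led this sum differed by stage. TEX35, a testis-expressed gene, had the highest TPM of the 42 in spermatogonia (901 ± 12.0, SD, n = 3) and in round spermatids (1969 ± 124), where it was the 35th most abundant gene of all and made up 33.6% of the summed TPM. SPATA3 followed in round spermatids at 1071 ± 113 TPM, or 18.3% of the sum. In spermatocytes TEX47 stood first at 901 ± 144 TPM, ahead of TEX35 at 694 ± 417, TEX9 at 474 ± 33.4, TEX2 at 416 ± 76.7 and SPAG6 at 405 ± 33.1. The order of these leaders is loose, since the large spread of TEX35 reaches its neighbours on both sides. Behind TEX35 in spermatogonia came TEX101 at 696 ± 21.4 TPM, SPAG6 at 597 ± 7.84, SPATA31G1 at 515 ± 19.2 and SPATA3 at 506 ± 10.6, the last pair within their spread. Behind SPATA3 in round spermatids came TEX47 at 406 ± 74.8 TPM, SPATA19 at 299 ± 63.3, SPATA6 at 230.5 ± 50.1 and SPATA7 at 229.8 ± 72.5. SPATA2L was the lowest of the 42 in every stage, under 1 TPM throughout.

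Differences between stages were tested with edgeR's quasi-likelihood test on all 9 libraries, with p-values adjusted over all 16802 genes (Benjamini-Hochberg) and called below 0.05. In spermatocytes against spermatogonia 13 of the 42 genes were higher, against 29.3% of all genes tested, and 17 were lower, against 44.0%, so that 30 changed, against 73.4%. In round spermatids against spermatocytes 16 were higher, against 42.7%, and 22 lower, against 36.4%, so that 38 changed, against 79.2%. In round spermatids against spermatogonia 10 were higher, against 39.5%, and 27 lower, against 39.7%, so that 37 changed, against 79.2%. Their median log2 fold change in the 3 comparisons was -0.18, -0.48 and -0.72, where that of all genes tested was -0.32, 0.19 and 0.0029. All 9 SPAG genes were lower in round spermatids than in spermatogonia, and 8 of them lower than in spermatocytes, with SPAG4 the exception. Against spermatogonia the log2 fold change was -0.41 for SPAG1, -0.50 for SPAG17 and -0.65 for SPAG4. The calls of SPAG17 and SPAG4 were lost without any 1 of the spermatogonia libraries. When tested against 1.5-fold, SPAG1, SPAG4, SPAG8, SPAG9 and SPAG17 were not called lower than in spermatogonia. Libraries of the stages did not overlap for 34, 36 and 39 of the 42 genes, against 79.9, 78.2 and 85.2% of all genes tested. The 3 comparisons share libraries, so their results are not independent of each other.

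These counts moved with the scale. The higher genes were 43.3, 42.1 and 27.0% of the calls among the 42 in the 3 comparisons, but 25.0, 41.2 and 3.57% on log2(TPM + 1), and 40.9, 40.0 and 4.55% with the spermatogonia libraries summed to 1. Without normalization factors 9 were higher and 25 lower, 18 higher and 18 lower, and 10 higher and 24 lower. Over all genes tested the median log2 fold change also shifted, to -0.74, 0.64 and 0.04 without normalization factors and to -0.41, 0.04 and -0.39 on log2(TPM + 1). Count over TPM was a factor of the gene times one of the library (largest log deviation 3.29e-14), so gene length cancels between stages. TPM took no TMM factors. Apart from the pseudocount and the fit, fold changes on TPM thus differ from those in CPM by a shift shared by all genes. Without spermatocytes replicate 3 the higher and lower genes numbered 13 and 17, 15 and 23, and 11 and 27, and without round spermatids replicate 2 they numbered 13 and 18, 15 and 21, and 10 and 25. For SPAG5, SPAG6, SPAG8, SPATA3, SPATA6, SPATA7, SPATA31G1, TEX35 and TEX261, the difference between spermatocytes and spermatogonia did not pass the test and its sign depended on the scaling.

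A gene was assigned a stage of highest level where it was called higher than in each of the other 2 stages. This held for 12 genes in spermatocytes (28.6%, against 19.5% of all genes tested), 11 in spermatogonia (26.2%, against 21.5%) and 7 in round spermatids (16.7%, against 30.1%), while 12 had no such stage. The number highest in round spermatids was 1 with the spermatogonia libraries summed to 1, and 1 or 2 in limma fits of log2(TPM + 1) or log2(TPM + 0.1). The number highest in spermatogonia was 4 with those libraries summed.

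**Figure D1:**
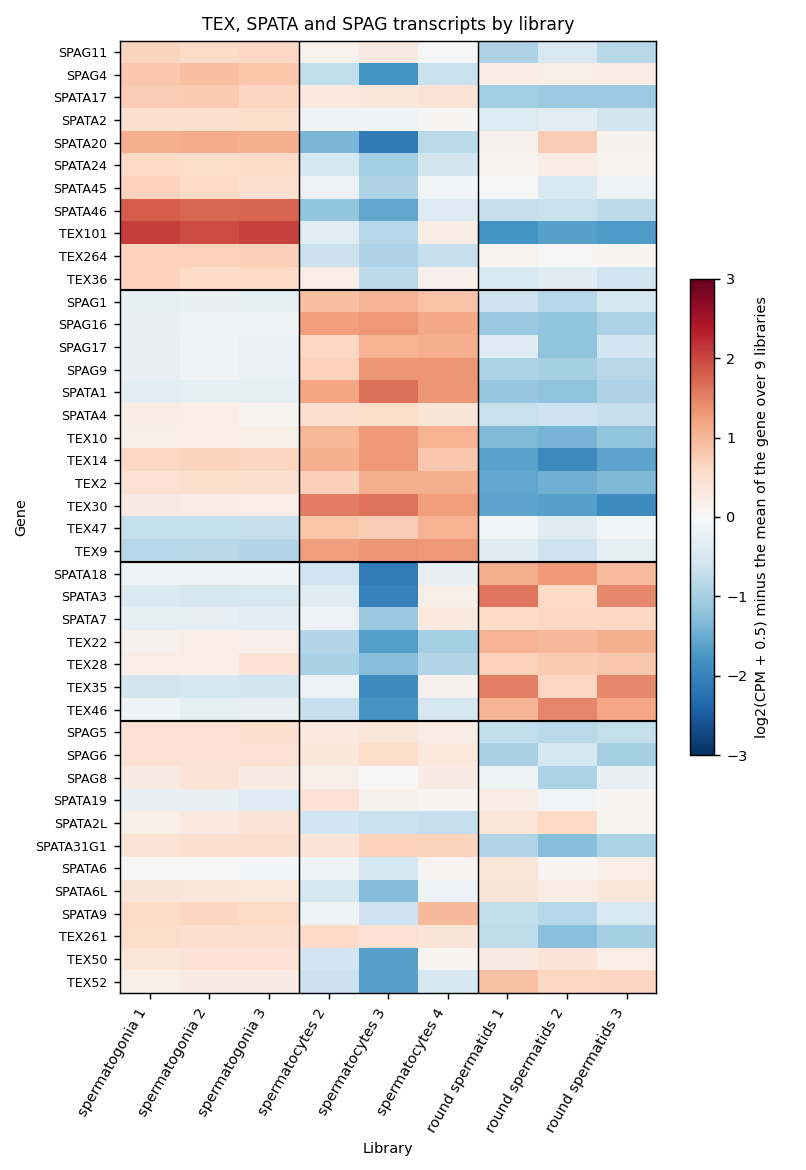
Level of the 42 genes (rows) in the 9 libraries (columns), as log2(CPM + 0.5) minus the mean of each gene over the libraries, red above and blue below it. Lines separate the 11 genes highest in spermatogonia, 12 highest in spermatocytes, 7 highest in round spermatids and 12 with no single highest stage, and spermatocytes 3 is the bluest column for the third block.

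Genes of the axoneme and of dynein assembly were lower in round spermatids than in either earlier stage. All 7 fell against spermatocytes, where 36.4% of all genes tested fell, with a median log2 fold change of -1.45 (all genes 0.19). All 7 fell against spermatogonia, where 39.7% of all genes fell, with a median of -0.82 (all genes 0.0029). In spermatocytes against spermatogonia 4 had risen and 1 fallen, against 29.3 and 44.0% of all genes, with a median of 0.32 (all genes -0.32). SPAG1, which helps to assemble dynein arms in the cytoplasm, stood at 108, 112 and 109.5 CPM in spermatogonia, 244, 265 and 239 in spermatocytes and 85.1, 72.7 and 90.2 in round spermatids. The spermatocyte libraries were all the highest and no stages overlapped. SPAG1 was 2.27-fold higher in spermatocytes than in spermatogonia (log2 fold change 1.18 ± 0.11 SE, edgeR adjusted p = 5.79e-06) and 3.02-fold lower in round spermatids than in spermatocytes (adjusted p = 2.52e-07). On Sscrofa11.1, SPAG1 lies on chromosome 4 from 36746798 to 36844662, matched by symbol.

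The 3 central apparatus genes did not share 1 profile. SPAG16 stood at 14.1, 15.0 and 15.1 CPM in spermatogonia, 40.0, 41.4 and 36.8 in spermatocytes and 7.28, 6.90 and 8.28 in round spermatids, and SPAG17 at 151, 166 and 156, then 274, 370.0 and 382, then 136, 77.4 and 119.7. Both were highest in every spermatocyte library, and round spermatids 2 was the lowest for SPAG17. SPAG16 rose by 1.42 ± 0.12 SE on the log2 scale in spermatocytes (edgeR adjusted p = 3.03e-06) and fell by 2.40 ± 0.12 in round spermatids (adjusted p = 3.21e-08), and SPAG17 rose by 1.12 ± 0.20 and fell by 1.62 ± 0.20 (adjusted p = 5.24e-04 and 2.66e-05). SPAG6, the most abundant of the 3 per length, stood at 410.5, 413 and 415 CPM in spermatogonia and 384, 446 and 379 in spermatocytes, which overlapped (log2 fold change -0.03 ± 0.14 SE, adjusted p = 0.827). Its round spermatid libraries, at 156, 210.5 and 154 CPM, lay below all others, a fall of 1.22 ± 0.14 from spermatocytes (edgeR adjusted p = 1.23e-05). SPAG16 lies on chromosome 15 from 115809152 to 116760976, SPAG17 on chromosome 4 from 102596465 to 102826213 and SPAG6 on chromosome 10 from 52496457 to 52571977.

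SPATA17, SPATA4 and SPAG8 differed between spermatogonia and spermatocytes by less than 0.5 on the log2 scale. SPATA17 stood at 47.2, 48.4 and 43.8 CPM in spermatogonia, 34.0, 35.2 and 37.0 in spermatocytes and 13.2, 12.9 and 12.8 in round spermatids, a stepwise decline with no overlap. It fell by 0.39 ± 0.0976 SE into spermatocytes (edgeR adjusted p = 0.00424) and by 1.45 ± 0.10 from there (adjusted p = 2.78e-07). SPATA4 stood at 101, 99.5 and 91.1, then 123, 127 and 114, then 54.6, 56.5 and 53.6 CPM. It rose by 0.32 ± 0.0945 SE in spermatocytes (edgeR adjusted p = 0.0115), a direction that turned to -0.11 without normalization factors and to -0.21 on TPM, and fell by 1.14 ± 0.0957 in round spermatids (adjusted p = 1.21e-06). SPAG8, a protein bound to sperm microtubules, stood at 59.2, 64.7 and 57.9, then 54.7, 48.3 and 57.5, then 44.4, 25.0 and 41.4 CPM. It fell by 0.53 ± 0.19 SE in round spermatids against spermatocytes (edgeR adjusted p = 0.0241).

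Several of these smaller calls were fragile. The rise of SPATA4 lost its call without spermatogonia replicate 3 (edgeR adjusted p = 0.0706), and the fall of SPAG8 from spermatocytes without spermatocytes replicate 2 or 4 (adjusted p = 0.0588 and 0.0620). The fall of SPAG17 in round spermatids against spermatogonia (log2 fold change -0.50 ± 0.20 SE, edgeR adjusted p = 0.0372) was lost without spermatogonia replicate 1, 2 or 3 (adjusted p = 0.0586, 0.0913 and 0.0682) and without round spermatids replicate 2 or 3 (0.0708 and 0.0514). The fall of SPATA17 in spermatocytes did not hold in 6 of 22 alternative analyses, each with another scaling, filter, sample set or threshold.

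**Figure D2:**
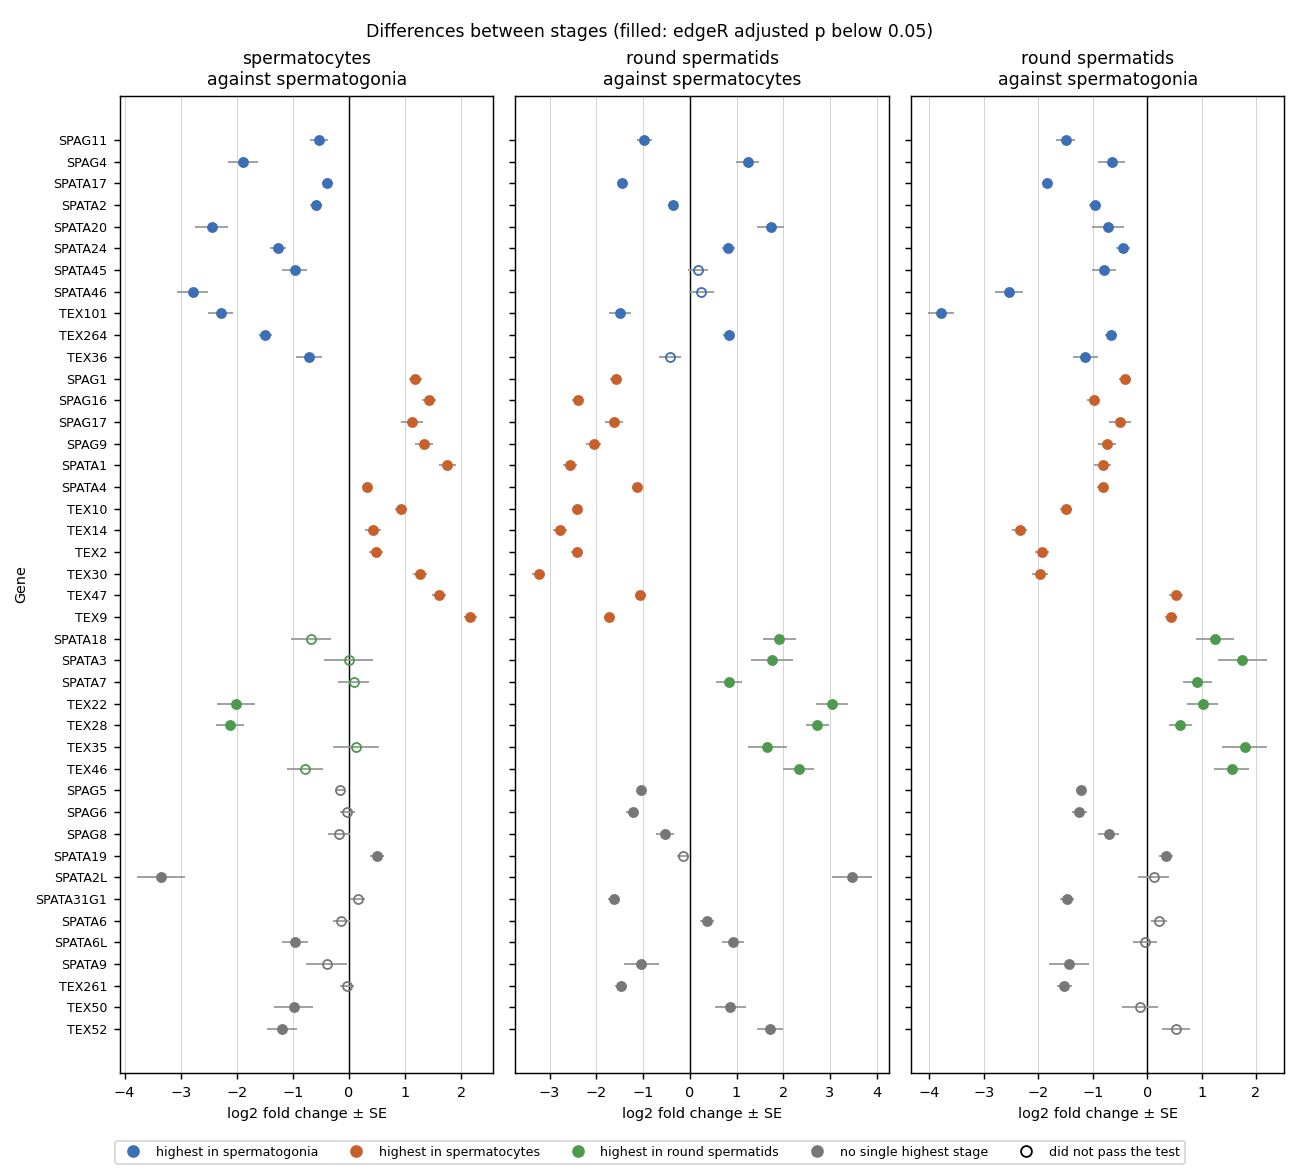
Log2 fold change of each of the 42 genes in the 3 comparisons, with bars of 1 standard error of the edgeR fit on all 9 libraries. Filled points passed the test, colours give the stage of highest level, and the orange genes lie right of 0 in spermatocytes against spermatogonia (SPATA4, TEX2 and TEX14 turn negative there on TPM) and left of it in round spermatids against spermatocytes.

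Of the genes for germ cell connection and surface, 2 were measured, and both were lowest in round spermatids. TEX14, which keeps the intercellular bridges between dividing germ cells open, stood at 283, 291 and 287 CPM in spermatogonia, 386, 451 and 324 in spermatocytes and 60.6, 48.5 and 60.9 in round spermatids. It was 6.83-fold lower in round spermatids than in spermatocytes (log2 fold change -2.77 ± 0.15 SE, edgeR adjusted p = 4.74e-08) and 5.06-fold lower than in spermatogonia (adjusted p = 1.96e-07). Its smaller rise in spermatocytes (0.43 ± 0.14 SE, edgeR adjusted p = 0.0160) was -0.10 on TPM, and lost its call without spermatogonia replicate 1 (adjusted p = 0.0543) or spermatocytes replicate 3 (0.0609). TEX14 lies on chromosome 12 from 34815472 to 34975901.

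TEX101, a glycoprotein of the germ cell surface needed to process ADAM3 on sperm, showed the widest fall of the 42 genes between spermatogonia and round spermatids. It stood at 185, 173 and 183 CPM in spermatogonia, 34.9, 24.1 and 51.6 in spermatocytes and 12.3, 13.9 and 13.1 in round spermatids. No stages overlapped. The fall was 4.90-fold into spermatocytes (log2 fold change -2.29 ± 0.23 SE, edgeR adjusted p = 1.07e-05), 2.81-fold from there (-1.49 ± 0.23, adjusted p = 1.17e-04) and 13.8-fold in all (-3.79 ± 0.24, adjusted p = 2.59e-07). In the same libraries the summed CPM of the 6 Leydig cell markers was highest in spermatogonia and lowest in spermatocytes, though HSD17B3 among them was highest in round spermatids (means of 2.67, 0.152 and 11.4 CPM), and whether other cells carried part of TEX101 was not tested. TEX101 lies on chromosome 6 from 50271730 to 50274745.

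Genes of the nuclear envelope, the head-tail junction, the centriole and mitochondria numbered 9. In spermatocytes against spermatogonia 2 rose and 4 fell, near the 29.3 and 44.0% of all genes tested, with a median log2 fold change of -0.68 (all genes -0.32). In round spermatids against spermatocytes 6 rose and 1 fell, against 42.7 and 36.4% of all genes, with a median of 0.84 (all genes 0.19). SPATA46, a nuclear envelope protein of sperm linked to fusion with the egg, stood at 53.2, 50.1 and 51.0 CPM in spermatogonia, 6.25, 4.71 and 11.3 in spermatocytes and 9.05, 9.13 and 8.36 in round spermatids. The spermatogonia libraries were far above the rest, and the later stages overlapped. SPATA46 was 6.91-fold lower in spermatocytes (log2 fold change -2.79 ± 0.27 SE, edgeR adjusted p = 8.53e-06) and 5.81-fold lower in round spermatids (-2.54 ± 0.26, adjusted p = 7.68e-06) than in spermatogonia. Between the later stages the difference was 0.25 ± 0.26 SE (adjusted p = 0.385), and 0.68 without spermatocytes replicate 4 (adjusted p = 0.00133).

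SPAG4 and SPATA20 shared a dip in spermatocytes. SPAG4, a SUN domain protein of the spermatid nuclear envelope, stood at 31.0, 32.8 and 31.4 CPM in spermatogonia, 10.2, 4.63 and 10.8 in spermatocytes and 20.4, 19.8 and 20.5 in round spermatids. It fell 3.71-fold (log2 fold change -1.89 ± 0.26 SE, edgeR adjusted p = 8.38e-05) and then rose 2.37-fold (1.24 ± 0.25, adjusted p = 0.00101). SPATA20 stood at 245, 246 and 241, then 43.9, 25.8 and 64.4, then 124, 195 and 125 CPM, a 5.46-fold fall (-2.45 ± 0.30, edgeR adjusted p = 4.12e-05) and a 3.32-fold rise (1.73 ± 0.29, adjusted p = 2.75e-04). Spermatocytes 3 was the lowest library for both. Their lower level in round spermatids than in spermatogonia was near the threshold: for SPAG4 (-0.65 ± 0.25, edgeR adjusted p = 0.0332) the call was lost without any 1 of the spermatogonia libraries (adjusted p = 0.0613, 0.0757 and 0.0642 without 1, 2 and 3) or of the round spermatid libraries (0.0721, 0.0693 and 0.0700). For SPATA20 (-0.72 ± 0.29, edgeR adjusted p = 0.0392) it was lost without spermatogonia 1, 2 or 3 (adjusted p = 0.0735, 0.0754 and 0.0701), spermatocytes 2 (0.0557) or round spermatids 1 or 3 (0.122 and 0.119).

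SPATA18, a protein of mitochondrial quality control, and SPATA7, a ciliary protein known from photoreceptors, were highest in round spermatids. SPATA18 stood at 54.7, 56.2 and 55.6 CPM in spermatogonia, 39.5, 13.8 and 50.5 in spermatocytes and 129.5, 147 and 117 in round spermatids. It was 3.78-fold higher in round spermatids than in spermatocytes (log2 fold change 1.92 ± 0.36 SE, edgeR adjusted p = 5.61e-04) and 2.36-fold higher than in spermatogonia (1.24 ± 0.35, adjusted p = 0.00795). SPATA7 stood at 85.8, 88.1 and 83.3, then 93.4, 47.9 and 129.7, then 159, 163 and 163 CPM, a rise of 0.84 ± 0.27 from spermatocytes (edgeR adjusted p = 0.0154) and of 0.92 ± 0.27 from spermatogonia (adjusted p = 0.0100). Against spermatogonia both calls were lost in limma on log2(TPM + 1), at 0.61 for SPATA18 (adjusted p = 0.207) and 0.30 for SPATA7 (0.435), and with the spermatogonia libraries summed to 1 (edgeR adjusted p = 0.113 and 0.134). Between the earlier stages neither passed, at -0.68 ± 0.35 for SPATA18 (edgeR adjusted p = 0.103) and 0.08 ± 0.27 for SPATA7 (adjusted p = 0.810). Without spermatocytes replicate 4 the former was -1.05 (adjusted p = 0.0234), and without spermatocytes replicate 3 the latter was 0.38 (adjusted p = 0.0310).

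The other 4 genes of this group differed in kind. TEX9 stood at 43.3, 43.6 and 42.2 CPM in spermatogonia, 186, 196 and 193 in spermatocytes and 60.6, 50.4 and 63.3 in round spermatids, the largest rise of the 42 genes into spermatocytes at 4.46-fold (log2 fold change 2.16 ± 0.11 SE, edgeR adjusted p = 4.67e-07). Its fall in round spermatids was 3.30-fold (-1.72 ± 0.11, adjusted p = 1.49e-07). Against spermatogonia it was higher in round spermatids by 0.43 ± 0.11 (adjusted p = 0.00340). On log2(TPM + 1) in limma that difference of TEX9 was -0.18 and did not pass (adjusted p = 0.282). SPATA6L, a relative of SPATA6, fell 1.96-fold into spermatocytes (edgeR adjusted p = 0.00293) and rose 1.91-fold from there (adjusted p = 0.00308).

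SPATA6, needed to form the connecting piece of sperm, and SPATA19, a mitochondrial protein of the sperm midpiece, changed little. SPATA6 stood at 178, 177 and 172 CPM in spermatogonia, 166, 123 and 189 in spermatocytes and 228, 185 and 203 in round spermatids, and its rise from spermatocytes (0.37 ± 0.15 SE, edgeR adjusted p = 0.0459) did not hold in 16 of 22 alternative analyses. The SPATA6 call was lost without spermatogonia replicate 1, 2 or 3 (adjusted p = 0.0724, 0.0723 and 0.0722), spermatocytes replicate 2 or 3 (0.0755 and 0.152) or round spermatids replicate 1 or 3 (0.152 and 0.0865). SPATA19 stood at 366, 372 and 331 TPM in spermatogonia, 394, 319.7 and 334 in spermatocytes and 281, 369.7 and 247 in round spermatids, where the stages overlapped, and in CPM at 66.1 ± 4.37, 93.5 ± 13.9 and 84.0 ± 8.92 (SD, n = 3). The rises of SPATA19 in CPM over spermatogonia of 0.50 ± 0.13 in spermatocytes (edgeR adjusted p = 0.00591) and 0.35 ± 0.13 in round spermatids (adjusted p = 0.0325) turned to -0.03 and -0.27 on log2(TPM + 1). The later rise of SPATA19 was also lost without spermatogonia replicate 1, 2 or 3 (adjusted p = 0.0706, 0.0668 and 0.134) or round spermatids replicate 1 or 3 (0.119 and 0.0712).

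Genes listed as broadly expressed were mainly lower in round spermatids. Of 9, 8 fell and none rose against spermatogonia, where 39.7% of all genes tested fell and 39.5% rose, with a median log2 fold change of -1.21 (all genes 0.0029). Against spermatocytes 7 fell and 2 rose, where 36.4% of all genes fell and 42.7% rose, with a median of -1.48 (all genes 0.19). TEX30 showed the largest fall of the 42 genes from spermatocytes to round spermatids, at 55.1, 53.2 and 52.1 CPM in spermatogonia, 134, 141 and 108 in spermatocytes and 14.7, 14.4 and 11.7 in round spermatids. No stages overlapped. It rose 2.39-fold (log2 fold change 1.26 ± 0.13 SE, edgeR adjusted p = 1.43e-05) and then fell 9.40-fold (-3.23 ± 0.14, adjusted p = 1.45e-08). TEX30 lies on chromosome 11 from 71077717 to 71085063.

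TEX10, a partner of the complex that processes the large ribosomal subunit, stood at 192, 197 and 194, then 341, 416 and 354, then 67.9, 64.8 and 74.9 CPM. It rose by 0.93 ± 0.11 SE in spermatocytes (edgeR adjusted p = 2.97e-05) and fell by 2.42 ± 0.11 in round spermatids (adjusted p = 2.21e-08). TEX2, a lipid-binding protein of the endoplasmic reticulum, stood at 635, 670.1 and 649.8, then 755, 975 and 991, then 157, 169.8 and 183 CPM, and also fell by 2.42 (± 0.13 SE, edgeR adjusted p = 5.18e-08) in round spermatids. Its rise of 0.48 ± 0.12 in spermatocytes (adjusted p = 0.00544) was -0.06 on TPM. SPAG9, a scaffold for JNK signalling and for motor proteins, stood at 151, 164 and 157, then 289, 448 and 450.0, then 93.4, 89.7 and 101 CPM. All 3 were highest in the spermatocyte libraries, and SPAG9 rose by 1.33 ± 0.16 SE and fell by 2.06 ± 0.16 (edgeR adjusted p = 3.82e-05 and 8.27e-07).

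SPAG5 and TEX261 showed no called change into spermatocytes, with a sign that depended on the scaling, and then fell. SPAG5, the spindle protein astrin, stood at 257, 257 and 260.3 CPM in spermatogonia, 228, 241 and 219 in spermatocytes and 113, 107 and 114 in round spermatids, a fall of 1.04 ± 0.0904 SE at the last step (edgeR adjusted p = 1.54e-06). The first difference of SPAG5 was -0.17 ± 0.0894 (adjusted p = 0.106, and 0.0307 without round spermatids replicate 2). TEX261, of the secretory pathway, fell 2.79-fold from spermatocytes (edgeR adjusted p = 2.11e-06), with -0.04 ± 0.13 SE before (adjusted p = 0.801). SPATA2, the adaptor that joins the deubiquitinase CYLD to the linear ubiquitin ligase, fell by 0.59 ± 0.0993 SE and then by 0.37 ± 0.0993 (edgeR adjusted p = 3.53e-04 and 0.00593), the second turning to 0.10 without normalization factors. TEX264, a receptor for the degradation of endoplasmic reticulum, stood apart at 34.1, 34.3 and 34.4, then 13.1, 10.7 and 12.8, then 22.3, 21.1 and 21.8 CPM, lower in spermatocytes by 1.49 ± 0.11 SE on the log2 scale (edgeR adjusted p = 2.16e-06) and higher by 0.83 ± 0.11 in round spermatids (adjusted p = 4.77e-05). SPATA2L, a relative of SPATA2, was under 1 CPM in every library, with log2 fold changes of -3.35 ± 0.43 SE into spermatocytes and 3.47 ± 0.43 from there (edgeR adjusted p = 5.54e-05 and 2.51e-05) that rest on few counts.

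**Figure D3:**
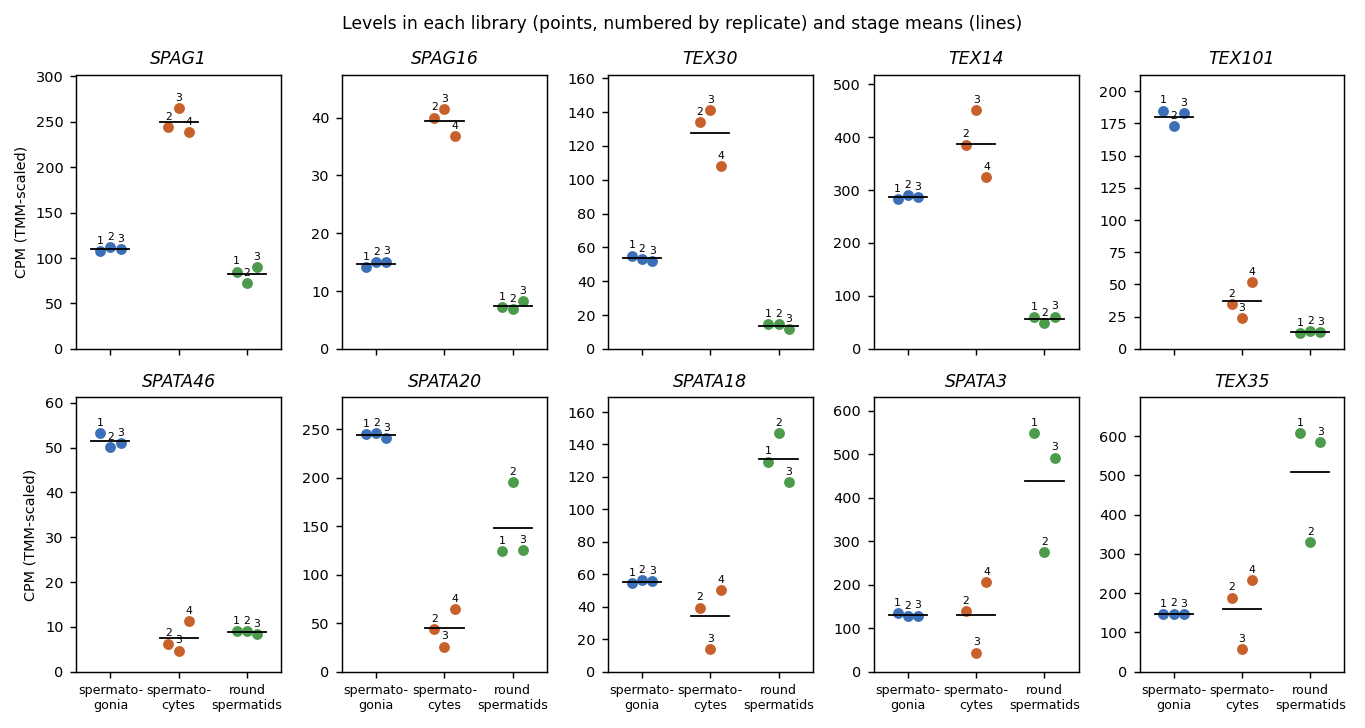
CPM of 10 of the genes in each library (points numbered by replicate) with stage means (lines), on axes from 0. SPAG1, SPAG16, TEX30 and TEX14 (for TEX14 not on TPM) peak in spermatocytes, TEX101 and SPATA46 in spermatogonia, and SPATA18, SPATA3 and TEX35 in round spermatids, where replicate 2 lies lowest for SPATA3 (275) and TEX35 (329.5).

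Among 13 genes whose function is little known, 8 rose and 3 fell from spermatocytes to round spermatids, against 42.7 and 36.4% of all genes tested, with a median log2 fold change of 0.87 (all genes 0.19). From spermatogonia to spermatocytes 2 rose and 7 fell, against 29.3 and 44.0% of all genes, with a median of -0.78 (all genes -0.32). The leading pair were TEX35 and SPATA3. TEX35 stood at 146, 148 and 147 CPM in spermatogonia, 189, 58.0 and 233 in spermatocytes and 608, 329.5 and 586 in round spermatids, and SPATA3 at 135, 128 and 129, then 140.1, 43.7 and 205, then 548, 275 and 492. For both, the spermatocyte libraries lay on either side of spermatogonia and the round spermatid libraries above all others. TEX35 was 3.17-fold higher in round spermatids than in spermatocytes (log2 fold change 1.66 ± 0.42 SE, edgeR adjusted p = 0.00387) and 3.46-fold higher than in spermatogonia (1.79 ± 0.42, adjusted p = 0.00260), and SPATA3 3.38-fold and 3.36-fold higher (adjusted p = 0.00441 and 0.00462). With the spermatogonia libraries summed to 1, the call against spermatogonia was lost for TEX35 (adjusted p = 0.0613) and SPATA3 (0.0823). TEX35 lies on chromosome 9 from 120351958 to 120377900, and SPATA3 on chromosome 15 from 131742405 to 131762293.

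TEX46, TEX22 and TEX28 were highest in round spermatids too, at lower levels. TEX46 stood at 4.32, 3.79 and 3.91 CPM in spermatogonia, 2.76, 1.03 and 3.20 in spermatocytes and 10.1, 13.9 and 11.3 in round spermatids, 5.02-fold higher in the last than in spermatocytes (log2 fold change 2.33 ± 0.33 SE, edgeR adjusted p = 7.15e-05) and 2.93-fold higher than in spermatogonia (1.55 ± 0.32, adjusted p = 0.00101). Its fall into spermatocytes just missed the threshold at -0.78 ± 0.32 (adjusted p = 0.0512, and 0.0188 without spermatocytes replicate 4). TEX22 stood at 1.76, 1.87 and 1.81, then 0.627, 0.153 and 0.536, then 3.66, 3.57 and 3.80 CPM. TEX28, the 1 gene of the 42 placed on the X chromosome, stood at 1.55, 1.54 and 1.90, then 0.412, 0.240 and 0.478, then 2.39, 2.56 and 2.65 CPM. Both fell into spermatocytes by over 2 on the log2 scale (-2.02 ± 0.34 SE and -2.12 ± 0.25, edgeR adjusted p = 3.58e-04 and 3.15e-05) and rose from there by 3.04 ± 0.34 and 2.73 ± 0.25 (adjusted p = 1.14e-05 and 2.33e-06). The higher level of TEX28 in round spermatids than in spermatogonia (0.61 ± 0.21, edgeR adjusted p = 0.0228) was lost without spermatogonia replicate 1 or 2 (adjusted p = 0.0925 and 0.0931) or round spermatids replicate 3 (0.0695), and was 0.01 on log2(TPM + 1). TEX22 was 1.02 ± 0.29 SE above spermatogonia (edgeR adjusted p = 0.00844), but 0.38 on log2(TPM + 1) in limma (adjusted p = 0.273), and the call was lost with the spermatogonia libraries summed to 1 (edgeR adjusted p = 0.153). TEX46 missed the threshold against spermatogonia in limma on log2(TPM + 1) and log2(TPM + 0.1), at 0.91 and 0.93 (adjusted p = 0.0608 and 0.0641).

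SPATA1 and TEX47 peaked in spermatocytes. SPATA1 stood at 11.7, 12.1 and 12.1 CPM in spermatogonia, 34.7, 48.0 and 38.4 in spermatocytes and 6.48, 6.22 and 7.67 in round spermatids, a 3.37-fold rise (log2 fold change 1.75 ± 0.15 SE, edgeR adjusted p = 3.53e-06) and a 5.94-fold fall (-2.57 ± 0.15, adjusted p = 9.10e-08). TEX47 stood at 69.6, 69.2 and 71.1, then 205, 194 and 236, then 108, 88.6 and 107 CPM, a 3.02-fold rise (edgeR adjusted p = 1.83e-06) and a 2.09-fold fall (adjusted p = 9.42e-06). Its level in round spermatids was above that in spermatogonia by 0.53 ± 0.12 on the log2 scale (adjusted p = 0.00156), which turned to -0.09 on TPM.

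The other genes of little known function were lower in spermatocytes or showed no called change there. SPATA24 stood at 70.6, 68.9 and 69.3, then 32.0, 22.9 and 31.7, then 48.7, 54.5 and 50.1 CPM, falling by 1.27 ± 0.14 SE and rising by 0.82 ± 0.14 (edgeR adjusted p = 1.69e-05 and 2.17e-04). TEX52, TEX50, SPATA45 and TEX36 fell into spermatocytes by 1.19, 0.99, 0.97 and 0.72 on the log2 scale (edgeR adjusted p = 0.00273, 0.0210, 0.00247 and 0.0165), and TEX52 and TEX50 rose from there by 1.72 and 0.87 (adjusted p = 1.89e-04 and 0.0348). TEX50 lost its fall without spermatocytes replicate 2 (adjusted p = 0.0617) and its rise without spermatocytes replicate 2 (0.0902) or round spermatids replicate 1, 2 or 3 (0.0630, 0.0832 and 0.0596). TEX36 in round spermatids was -0.42 ± 0.23 SE from spermatocytes (edgeR adjusted p = 0.119, and 4.39e-04 without spermatocytes replicate 3), and TEX52 was 0.53 ± 0.26 from spermatogonia (adjusted p = 0.0884, and 0.00271 without spermatocytes replicate 3).

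SPATA9 stood at 6.82, 7.20 and 6.83 CPM in spermatogonia, 4.02, 2.66 and 9.07 in spermatocytes and 2.44, 2.22 and 3.02 in round spermatids, and its spermatocyte libraries overlapped both other stages. It was lower in round spermatids than in spermatocytes (log2 fold change -1.04 ± 0.37 SE, edgeR adjusted p = 0.0242), but without spermatocytes replicate 4 that difference was -0.40 (adjusted p = 0.104) and the one between spermatocytes and spermatogonia, -0.40 in all libraries (adjusted p = 0.330), was -1.05 (adjusted p = 0.00143). The SPATA9 fall was also lost without round spermatids replicate 1 or 2 (adjusted p = 0.0635 and 0.0724).

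SPATA31G1 and SPAG11 belong to families of related genes, and whether reads of relatives enter their counts was not tested. SPATA31G1, the 1 measured member of the SPATA31 family, stood at 730.2, 771 and 767 CPM in spermatogonia, 734, 894 and 884 in spermatocytes and 295, 228 and 288 in round spermatids. It did not pass between the first 2 stages (log2 fold change 0.15 ± 0.13 SE, edgeR adjusted p = 0.316, but 0.33 with adjusted p = 0.0350 on RLE size factors and -0.38 on TPM) and fell 3.10-fold from spermatocytes (adjusted p = 8.57e-07). SPAG11, a gene of the beta-defensin type known from the epididymis, stood at 8.34, 7.76 and 8.06, then 5.49, 6.16 and 5.07, then 2.44, 3.51 and 2.60 CPM. It fell by 0.53 ± 0.16 SE and by 0.97 ± 0.17 (edgeR adjusted p = 0.0133 and 3.36e-04), the first fall not holding in 7 of 22 alternative analyses.

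Within spermatocytes, library 3 was low for most of those of the 42 genes that were highest in another stage. It was the lowest of the 3 spermatocyte libraries for 23 of the 42 genes, against 34.9% of all genes tested. All 7 genes highest in round spermatids were lowest there, against 51.2% of the genes highest in that stage over the whole table, and so were 9 of the 11 highest in spermatogonia, against 32.1%, but 1 of the 12 highest in spermatocytes, against 8.84%. The stage of highest level was assigned with spermatocytes 3 among the libraries, so these shares are not independent of its levels. SPATA3 in spermatocytes 3 was at 0.253 times the mean of spermatocytes 2 and 4, TEX22 at 0.263, TEX35 at 0.274 and SPATA18 at 0.307, while SPATA1 was at 1.31 times and TEX14 at 1.27 times that mean. Beside this, the 6 spermatid markers summed to 2429.9, 1264 and 2448 CPM in spermatocytes 2, 3 and 4, and the 5 meiotic markers to 2268, 2628 and 2271. SYCP2 (890.0, 1165 and 894 CPM), HORMAD1 (312, 358 and 258) and STAG3 (806, 871 and 757) were highest in spermatocytes 3. SYCP1 was lowest there (148, 119 and 230.5), and SYCP3 was highest in spermatocytes 4 (113, 116 and 130.4). Spermatocytes 4 had the highest SPATA9 and TEX101. Its sums of Sertoli and endothelial markers were 48.6 and 15.0 CPM, against 31.0 to 37.0 and 4.37 to 4.84 in the other spermatocyte libraries. Of the Sertoli markers only GATA4 was highest there (25.3, 24.9 and 39.1 CPM in spermatocytes 2, 3 and 4), and SOX9 and CLDN11 were lowest there. The smooth muscle sum was also highest in spermatocytes 4, but the Leydig sum was highest in spermatocytes 2. The part of these markers in the levels was not tested.

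**Figure D4:**
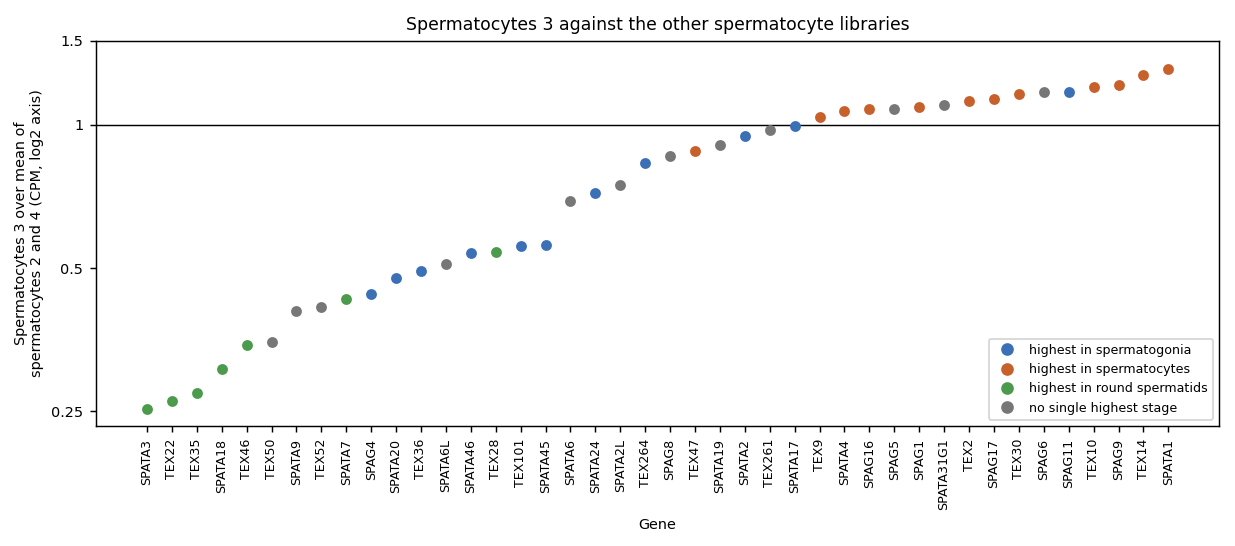
Level in spermatocytes 3 over the mean of spermatocytes 2 and 4 for each of the 42 genes (points, ordered by ratio, on a log2 axis), coloured by the stage of highest level. Genes highest in round spermatids lie from 0.253 (SPATA3) to 0.540 (TEX28), and those highest in spermatocytes from 0.882 (TEX47) to 1.31 (SPATA1).

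Replicate spread differed by stage. The median coefficient of variation of the 42 genes was 2.84% in spermatogonia, 17.6% in spermatocytes and 10.6% in round spermatids, against 4.13, 17.6 and 15.9% over all genes tested. In spermatocytes 16 of the 42 differed at least 2-fold between the highest and lowest library (38.1%, against 24.8% of all genes tested), in the other stages none of the 42 (against 4.42 and 13.0%). Round spermatids 2 was the highest or lowest of its group for 38 of the 42 genes, against 86.1% of all genes tested. Relative to the mean of round spermatids 1 and 3 it held 0.529 times as much SPATA3, 0.552 times TEX35, 0.583 times SPAG8 and 0.606 times SPAG17, but 1.56 times SPATA20 and 1.36 times SPAG6.

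Known partners of these proteins were counted from a list. Of 50 listed partners 40 were found and tested, with 16 higher and 17 lower in spermatocytes against spermatogonia, where 29.3% of all genes tested were higher and 44.0% lower. In round spermatids 8 were higher and 24 lower than in spermatocytes (all genes 42.7 and 36.4%), and 7 higher and 26 lower than in spermatogonia (all genes 39.5 and 39.7%). Their median log2 fold changes were 0.15, -0.92 and -0.81, against -0.32, 0.19 and 0.0029 over all genes. BNIP3L, a mitophagy receptor that works with SPATA18, rose most in spermatocytes (log2 fold change 1.97 ± 0.115 SE, edgeR adjusted p = 7.29e-07), and ZDHHC19, a palmitoyltransferase of sperm, fell most, from 16.7 ± 0.663 to 0.621 ± 0.204 CPM (SD, n = 3, edgeR adjusted p = 5.76e-07). In round spermatids against spermatocytes CFAP221, of the central apparatus, fell most (-2.91 ± 0.143 SE, edgeR adjusted p = 2.90e-08). LAS1L, of the complex that TEX10 joins, rose most (2.85 ± 0.274, adjusted p = 3.49e-06). Other partners of TEX10 did not share this rise: SENP3 and PELP1 fell (-0.80 and -0.66, edgeR adjusted p = 4.61e-05 and 2.54e-04). WDR18 did not pass (0.35, adjusted p = 0.115). Against spermatogonia MAPK8, a JNK kinase bound by SPAG9, was the most raised in round spermatids (2.07 ± 0.164, edgeR adjusted p = 1.04e-06), and ZDHHC19 the most lowered (-4.72 ± 0.259, adjusted p = 9.59e-08).

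By position, 39 of the 42 symbols matched an entry of the RefSeq table of Sscrofa11.1. TEX22 is on an unplaced sequence, and the others with an entry lie on 16 chromosomes, with 5 each on 6 and 12 and no more than 4 on any other.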

How the data were processed

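Directional libraries made from total RNA of pig testis were read from both ends, per the labels' protocols, which speak of biological samples without saying whether each came from its own animal, so p-values measure the spread between libraries. The submitters' processing notes name Sscrofa11.1 and bcl2fastq. No aligner, quantifier, annotation or use of strand is known here, so overlapping and antisense genes are uncertain. The authors deposited estimated counts per gene and TPM, 1 column per library. Spermatocyte columns are headed by the pachytene stage and spermatogonia columns by the KIT receptor. They were matched to titles by number, which the labels do not state, and 6 of 15 columns, among them 1 that shares a number with a spermatogonia title, were not used. Totals were 47963279 to 64639201 estimated counts, the fewest in round spermatids 2, so genes under 1 CPM are the least precise.

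Counts were rounded, filtered with filterByExpr, scaled with TMM factors (0.774 to 1.26) and fitted over all 9 libraries by quasi-likelihood in edgeR (version 4.0.16, R version 4.3.3). SE is the log2 fold change over the square root of F. The scripts were tested on simulated data. Symbols were found for 14749 of 22342 identifiers, and 25 RefSeq symbols of these families had none and are not analysed here. The members, lists and rules were chosen with earlier results of these data known. By rule, values in every library are given for members with the 6 largest rises and falls in each comparison (called, at least 10 CPM in the higher stage, no overlap), for the meiosis and axoneme groups and for the 5 highest by TPM in each stage. Other members with such values were chosen after their values were seen. Partners named are the largest called rise and fall in each comparison, and other partners of TEX10 beside LAS1L. There were 22 alternatives, 1 of which (scaling without the 50 most abundant genes) was added after seeing the data. They changed the scaling, filter, tool (limma 3.58.1, DESeq2 1.42.0), threshold, scale or libraries. Tables and plots were made in Python 3.11.15.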

Additional observations from a re-analysis of the deposited data

How the results depend on the processing

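Of 126 comparisons of a member between stages, 70 kept their direction and side of the threshold in all 22 alternatives and 56 did not in at least 1. A direction reversed in 24, of which 8 were called. Where no cause is shown by the setting itself, it was not tested. Genes under 1 CPM were limited by depth, and the near-identical spermatogonia libraries enter the test as 3 samples.

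Members higher in spermatocytes than in spermatogonia numbered 8 on both log2(TPM + 1) and log2(TPM + 0.1), against 13. Members higher in round spermatids than in spermatogonia numbered 5 when tested against 1.5-fold, 1 and 2 on the TPM scales and 1 with the spermatogonia libraries summed, against 10. Members highest in round spermatids numbered 1 and 2 on the TPM scales and 1 with those libraries summed, against 7. Members highest in spermatogonia numbered 2 against 1.5-fold and 4 with those libraries summed, against 11. All counts left out of these sentences stayed within 1.5 times.

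No pairing by replicate number was seen. Same-numbered deviations correlated between -0.12 and 0.04, and different-numbered ones between -0.15 and 0.14. Spermatogonia libraries differed little more than counting allows, so this check cannot decide whether libraries shared an animal. With the replicate block, 12 members were higher and 19 lower in spermatocytes against spermatogonia, 17 and 20 in round spermatids against spermatocytes, and 10 and 27 in round spermatids against spermatogonia. The block reversed the first comparison for SPATA7 (-0.34), TEX35 (-0.27) and TEX261 (0.07).

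Leaving out 1 library at a time gave 12 to 13 higher and 16 to 20 lower members in spermatocytes against spermatogonia, 14 to 17 and 20 to 23 in round spermatids against spermatocytes, and 8 to 11 and 24 to 27 in round spermatids against spermatogonia. In log2 fold changes, the range crossed 0 in spermatocytes against spermatogonia for SPAG6 (-0.11 to 0.01), SPATA3 (-0.50 to 0.41), SPATA6 (-0.28 to 0.02), SPATA7 (-0.28 to 0.38), TEX261 (-0.10 to 0.01) and TEX35 (-0.24 to 0.53). It also did so for SPATA45 in round spermatids against spermatocytes (-0.06 to 0.33), and for SPATA6L (-0.06 to 0.01) and SPATA2L (-0.13 to 0.32) in round spermatids against spermatogonia.

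The remaining reversed log2 fold changes are given by setting. In spermatocytes against spermatogonia, both RLE size factors and DESeq2 gave 0.01 for SPAG5, 0.15 for SPAG6, 0.0015 for SPAG8, 0.16 for SPATA3, 0.03 for SPATA6 and 0.15 for TEX261. With no filter these were 0.05, 0.19, 0.04, 0.20, 0.08 and 0.19, with only the compared stages 0.03, 0.17, 0.02, 0.20, 0.06 and 0.16, and without the 50 most abundant genes in the scaling 0.07, 0.21, 0.06, 0.22, 0.09 and 0.20. Without normalization factors, SPATA31G1 was -0.27, SPATA4 -0.11, SPATA7 -0.32 and TEX35 -0.27. On both TPM scales SPATA31G1 was -0.38, SPATA4 -0.21, SPATA7 -0.56, TEX35 -0.62, SPATA19 -0.03, TEX14 -0.10 and TEX2 -0.06, and limma-voom gave -0.03 for SPATA7 and -0.10 for TEX35.

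In round spermatids against spermatocytes, leaving out the normalization factors gave 0.30 for SPATA19, 0.10 for SPATA2 and 0.03 for TEX36, and SPATA45 was -0.03 with no filter and -0.02 without the 50 genes. In round spermatids against spermatogonia, both TPM scales gave -0.27 for SPATA19, -0.39 for SPATA6 and -0.09 for TEX47, and log2(TPM + 1) and log2(TPM + 0.1) gave -0.08 and -0.09 for TEX52, -0.18 and -0.19 for TEX9, and -0.15 and -0.43 for SPATA2L. SPATA6L was 0.04 with RLE size factors and DESeq2, 0.01 with a minimum of 1 CPM in 3 libraries and with only the compared stages, and 0.0024 without the 50 genes.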
